A study of Homo sapiens with 21 samples.

Results

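U10 and U100 are 2 cell lines that resist olaparib, an inhibitor of the DNA repair enzyme PARP, and both were derived in culture from the ovarian cancer cell line UWB1.289. The comparison takes the mRNA sequencing library of U100 against that of U10, which are 2 of the 21 libraries of the series, and asks what separates a pair of resistant cell lines that share a parental cell line and a drug. UWB1.289 is labelled sensitive and has no drug label, and its library served as the level from which both derived. All 3 cell lines were grown in the same medium with serum, and the labels give neither a clone, nor a passage, nor whether olaparib was present at harvest. Each cell line had 1 library. Differences between U100 and U10 therefore have no replicate check of their own, and the intervals below hold counting error alone. The intervals are too narrow where reads are PCR copies of 1 molecule.

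PARP1 binds broken DNA strands and recruits their repair, and olaparib holds it on the DNA. UWB1.289 lacks functional BRCA1, so it repairs double-strand breaks poorly by homologous recombination, and cells of this kind are known for their sensitivity to PARP inhibition. Known routes to resistance include regained recombination, loss of the proteins that shield DNA ends, slower replication forks with fewer gaps, loss of the enzyme PARG and drug export by ABC transporters. Epithelial-mesenchymal transition (EMT), in which epithelial cells lose cell contacts and make matrix and mesenchymal proteins, was the subject of the study, and it described both U10 and U100 as partial EMT cell lines. In promoter DNA methylation, the study reported EMT-like changes for U10 alone among its partial EMT cell lines.

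The U100 library held 13108959 counts on genes, that of U10 held 10256404 and that of UWB1.289 held 11621919. Levels are given in CPM, a gene's counts scaled to a common library total on genes. The limit of detection was set at 3 counts, which is 0.229 CPM in U100 and 0.293 CPM in U10. Ovarian and epithelial markers were present in both cell lines. PAX8, a transcription factor of the müllerian lineage, stood at 452 CPM in U100, 386 CPM in U10 and 357 CPM in UWB1.289. EPCAM, an epithelial surface protein, stood at 581, 504 and 598 CPM in that order, and keratin 7 (KRT7) at 2302, 3004 and 1915 CPM. The müllerian markers WT1, EMX2 and ESR1 were at or under 0.488 CPM in all 3 cell lines. Of 10 fibroblast markers, DCN and LUM had 0 counts in all 3 libraries, while the list summed to 28.2 CPM in U100 and 188 CPM in U10, of which THY1 made up 165 CPM in U10. The leukocyte markers CD3E, CD3D, MS4A1 and TYROBP and the hepatocyte markers APOA2 and TTR, had 0 counts in each of the 3 libraries. In bulk samples, fewer cells of a type and less RNA per cell cannot be told apart.

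A gene was counted as measured when the mean of U100 and U10 was at least 1 CPM, and as called when log2(CPM + 1) differed by at least 1 and the 95% interval of the count ratio excluded equality. By this rule 745 of 14590 measured genes (5.11%) were higher in U100 and 298 (2.04%) were lower, together 1043 genes or 7.15%. A stricter reading came from the quasi-likelihood test of edgeR, with the spread between libraries borrowed from HepG2, HepG2S3 and HCC4006ER, which have 2 libraries each. It assumes that cultures of U10 and U100 vary like those libraries. At a Benjamini-Hochberg adjusted p under 0.05 191 of 19646 genes (0.972%) passed it, 77 higher in U100 (0.392%) and 114 lower (0.58%). Of the 30 leading genes described first, 25 passed this test, while VCAN, ALPK2, CSTA, CPAMD8 and PNMA3 did not. Of the 93 called members of gene lists described after them, 18 passed, so most of those differences rest on the fold and its counting error alone. The call rule between 2 libraries of 1 cell line called 5.13% of genes in HepG2, 0.084% in HepG2S3, 0.00714% in HCC4006ER and 1.99% in HCC4006P1. The count of called genes was thus 1043 of 14590 here against 667 of 13005 between the HepG2 libraries, the least alike of these pairs. At least a 4-fold difference on this scale was seen for 103 called genes between U100 and U10 and for 104 between the HepG2 libraries. The central spread of the differences was 0.46 on the log2 scale for U100 against U10, 0.39 for HepG2, 0.15 for HepG2S3 and 0.17 for HCC4006ER. The median measured gene was 0.09 (log2) higher in U100. With DESeq2 size factors that median was -0.0094 and 59.4% of called genes were higher in U100, against 71.4% here.

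**Figure D1:**
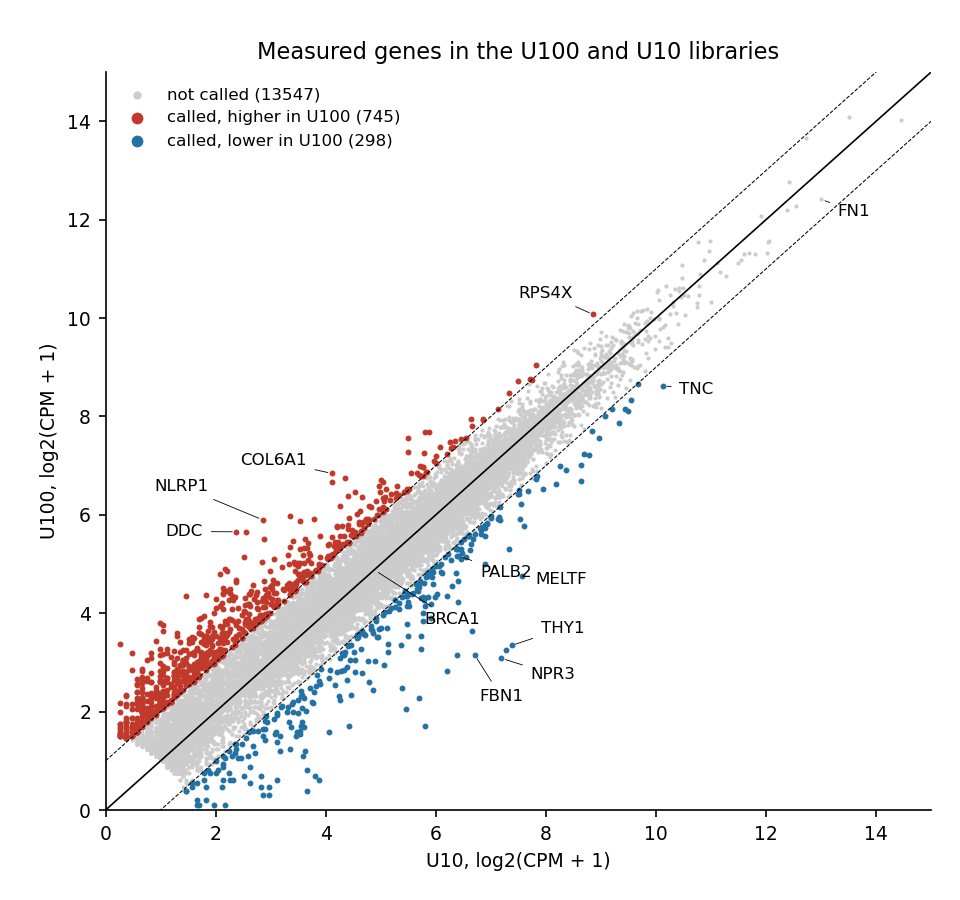
Each point is 1 of 14590 measured genes, with its level in U10 on the x axis and in U100 on the y axis, both as log2(CPM + 1). The solid line marks equal levels and the dashed lines a difference of 1. The 745 genes called higher in U100 (red) lie mostly at low levels, with a median of 9.69 CPM in U100 and 2.83 CPM in U10, while the 298 called lower (blue) have medians of 9.15 and 28.5 CPM.

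The 2 sets of called genes stood differently against UWB1.289. Of the 298 genes lower in U100, the parental level was nearer to U100 for 261 (87.6%) and nearer to U10 for 37, and it lay below both cell lines for 158. Of the 745 genes higher in U100, the parental level was nearer to U10 for 337 (45.2%) and nearer to U100 for 408 (54.8%). Genes that marked U10 were thus mostly ones at which U10 had left the parental level, while genes that marked U100 included both gains in U100 and losses in U10.

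The widest differences were genes high in U10. NPR3, the clearance receptor for natriuretic peptides, stood at 7.48 CPM in U100, 145 CPM in U10 and 2.15 CPM in UWB1.289, so U10 was 19.4-fold higher than U100 (95% interval 15.8 to 24.1). THY1, a surface glycoprotein of stromal and stem-like cells also called CD90, stood at 9.15, 165 and 3.18 CPM (18.0-fold, 14.98 to 21.9). DGKI, a diacylglycerol kinase, stood at 2.29, 55.1 and 0.516 CPM (24.1-fold, 16.7 to 36.0). In the 14 other cell lines of the series these genes reached no more than 12.1, 3.44 and 5.66 CPM, so U10 had the highest level of all 17 cell lines for each of the 3. KRT17, a keratin of basal and stressed epithelium, stood at 3.81 CPM in U100, 50.99 CPM in U10 and 0.172 CPM in UWB1.289, the last under the limit of detection. KRT17 has near-identical pseudogene copies, so its counts are uncertain. MELTF, the iron-binding surface protein melanotransferrin, was among the most abundant of this set, at 26.0 CPM in U100, 189 CPM in U10 and 5.94 CPM in UWB1.289. In all 5 of these genes U100 also stood above UWB1.289 but far below U10.

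Actomyosin and signalling genes were among the same 15. MYL9, a regulatory light chain of contractile myosin, stood at 11.4 CPM in U100 and 11.7 CPM in UWB1.289, against 101 CPM in U10. MYH14, a non-muscle myosin heavy chain, had 0.534 CPM in U100, 13.7 CPM in U10 and 0 counts in UWB1.289. PLCB1, a phospholipase C, stood at 3.13, 43.0 and 5.85 CPM in U100, U10 and UWB1.289. ACSF3, which activates malonate in mitochondria, stood at 0.305, 11.6 and 1.12 CPM. The remaining genes of the 15 (FBN1, VCAN, UPK3B, FLRT2, ALPK2 and CPT1C) were between 8.90-fold and 21.2-fold higher in U10.

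Genes high in U100 led with DDC, which decarboxylates aromatic amino acids to make dopamine and serotonin. It stood at 49.4 CPM in U100 and 4.19 CPM in U10 (11.8-fold, 8.64 to 16.4), with 0 counts in UWB1.289 and at most 12.2 CPM in the 14 other cell lines. COL6A1 and COL6A2, neighbouring genes for 2 chains of collagen VI, stood at 114 and 100.3 CPM in U100 against 16.3 and 16.4 CPM in U10, with 29.9 and 32.5 CPM in UWB1.289. CD82 and TSPAN18, membrane proteins of the tetraspanin family, stood at 26.9 and 12.6 CPM in U100, 3.22 and 1.07 CPM in U10 and 1.89 and 1.291 CPM in UWB1.289. They lie beside TP53I11 on chromosome 11, and these 3 consecutive measured genes were all called, with log2 differences of 2.71 to 2.89. In these genes other than TP53I11, U100 was the cell line farther from the parental level.

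Other leading genes were low in U10 beside both U100 and UWB1.289. NLRP1, an inflammasome sensor, stood at 58.6 CPM in U100 and 67.4 CPM in UWB1.289 against 6.24 CPM in U10 (9.39-fold between U100 and U10, 7.27 to 12.3). CAMK2N1, an inhibitor of calcium/calmodulin-dependent kinase, stood at 62.3, 82.2 and 9.17 CPM in U100, UWB1.289 and U10. RTL6, a gene of retrotransposon origin, stood at 12.9, 32.4 and 0.975 CPM in that order. A1CF, a cofactor of APOB mRNA editing, stood at 9.38 and 5.25 CPM against 0.195 CPM in U10, where it rested on so few counts that the ratio of U100 to U10 spanned 13.04 to 402. SULF2, which trims sulphate from heparan sulphate chains, stood at 49.0, 26.5 and 4.88 CPM, and TLE3, a transcriptional corepressor, at 28.8, 16.9 and 3.51 CPM. U10 was the low cell line in each of these 6 genes, as it was for TP53I11 and the receptor phosphatase PTPRU.

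**Figure D2:**
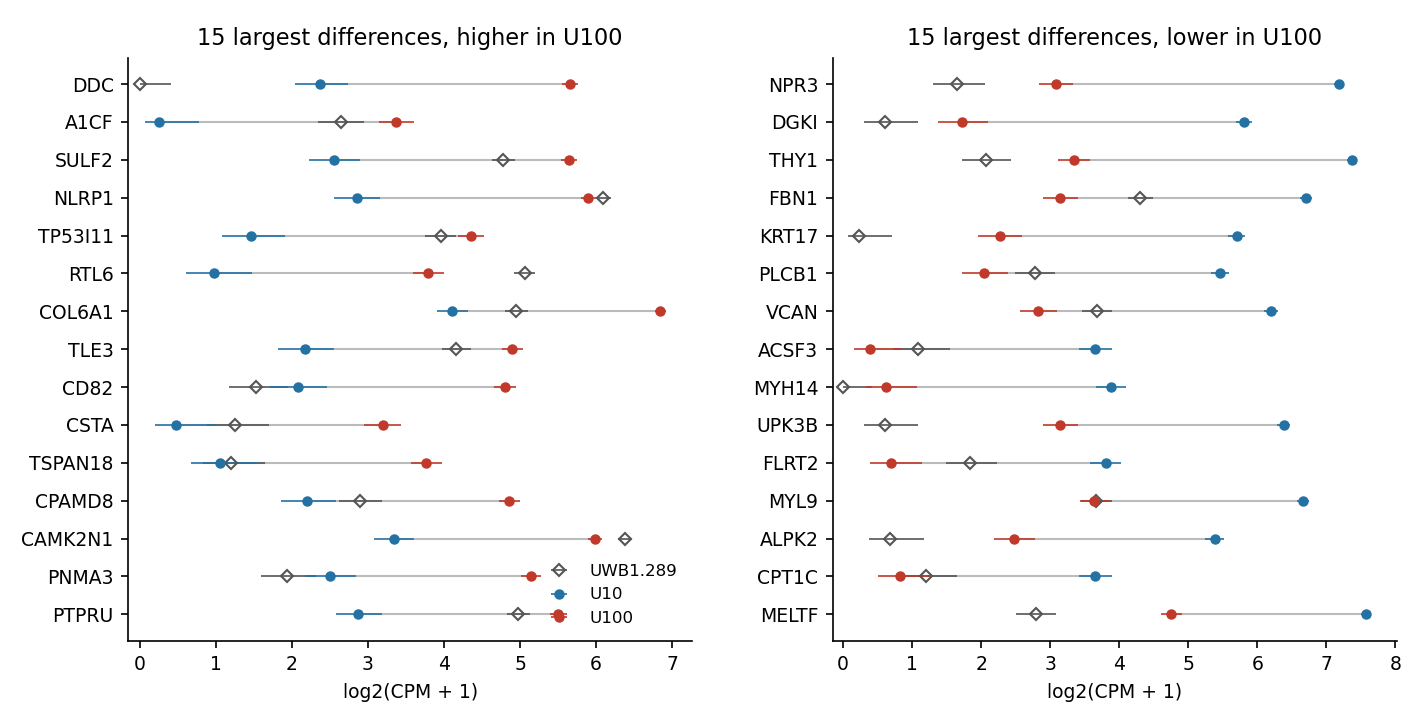
The x axes give log2(CPM + 1) in U100 (red), U10 (blue) and UWB1.289 (open diamonds) for the 15 protein-coding genes with the largest called difference in each direction, and bars are 95% Wilson intervals of counting error. In the panel of genes lower in U100, the diamonds lie near the red points or beyond them for most genes, and U10 stands alone, whereas in the other panel the diamonds lie near U10 for some genes (CD82, TSPAN18) and near U100 for others (NLRP1, PTPRU).

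HOX genes encode the homeobox factors that set position along the body axis, and they lie in 4 clusters. Of 22 measured HOX genes, 14 (63.6%) were called higher in U100 and 0 lower, beside 5.11% and 2.04% of all measured genes, and their median log2 difference was 1.27 beside 0.09. None of the 14 passed the edgeR test with borrowed spread, with adjusted p of 0.0511 (HOXB3) to 0.659 (HOXD1). All 8 measured HOXD genes and all 4 measured HOXB genes were called. HOXB9 stood at 18.6 CPM in U100, 3.02 CPM in U10 and 3.96 CPM in UWB1.289, and HOXD9 at 14.3, 2.44 and 4.90 CPM. HOXD13, which patterns the limb and genital tract, stood at 3.74, 0.975 and 0.0860 CPM, the last under the limit of detection. The HOXB and HOXD clusters had a median log2 difference from UWB1.289 of 1.39 and 1.290 in U100, and of -0.23 and -0.31 in U10. The HOXC cluster differed in origin, since HOXC4 stood at 4.04 CPM in U100 and 5.33 CPM in UWB1.289 but at 0.293 CPM in U10. In the HOXA cluster 1 of 8 measured genes, HOXA3, was called, at 8.24 CPM in U100, 2.34 CPM in U10 and 10.8 CPM in UWB1.289. HOXD1 and HOXD8 fell short of the call with TMM library sizes, at 0.998 and 0.942 (log2). These are low levels, and neighbouring or antisense HOX transcripts overlap, so reads in the overlaps may be left out of the counts as ambiguous.

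**Figure D3:**
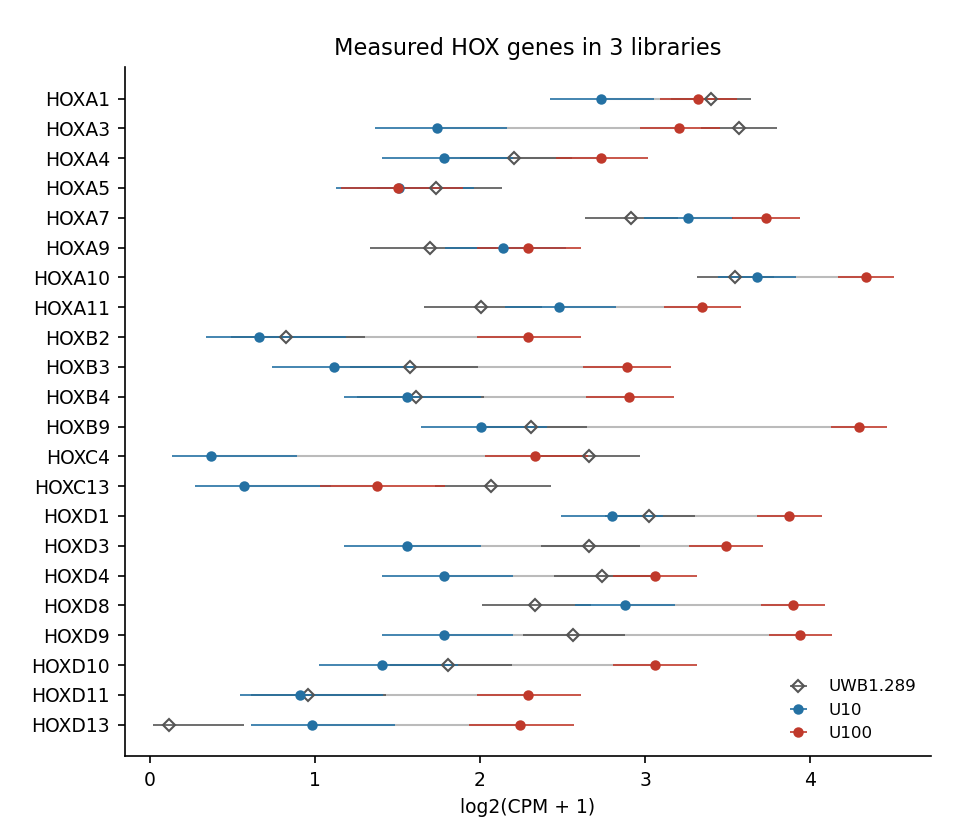
The x axis gives log2(CPM + 1) for the 22 measured HOX genes in U100 (red), U10 (blue) and UWB1.289 (open diamonds), with 95% Wilson intervals of counting error. U100 is the right-most point for all 4 HOXB and all 8 HOXD genes, while UWB1.289 is right-most for HOXC4 and HOXC13.

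The HOXD genes formed the longest run of called genes on any chromosome. From HOXD13 to HOXD1, at chr2:176957449-177055635 (GRCh37), 11 consecutive measured genes were all higher in U100, the 8 HOXD genes and the non-coding HOXD-AS2, HAGLR and HAGLROS, with log2 differences of 1.02 to 2.16. HAGLR was the most abundant of them, at 126 CPM in U100, 51.4 CPM in U10 and 87.0 CPM in UWB1.289. The next paragraph shows the 250 bases before the start of 2 HOXD genes high in U100 and of 2 matrix genes high in U10, since the study concerned promoter DNA methylation, which falls on CG dinucleotides.

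The sequences are from RefSeq on GRCh38.p14, read 5′ to 3′ on the strand of the gene, with each CG in capitals. HOXD3 lies at chr2:176157057-176157306 (plus strand), HOXD10 at chr2:176116528-176116777 (plus strand), FBN1 at chr15:48644971-48645220 (minus strand) and VCAN at chr5:83471494-83471743 (plus strand).
HOXD3: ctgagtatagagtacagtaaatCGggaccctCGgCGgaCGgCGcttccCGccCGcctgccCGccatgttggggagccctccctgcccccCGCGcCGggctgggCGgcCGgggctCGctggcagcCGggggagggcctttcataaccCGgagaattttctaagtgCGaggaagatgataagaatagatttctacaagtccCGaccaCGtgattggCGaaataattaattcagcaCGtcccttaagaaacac
HOXD10: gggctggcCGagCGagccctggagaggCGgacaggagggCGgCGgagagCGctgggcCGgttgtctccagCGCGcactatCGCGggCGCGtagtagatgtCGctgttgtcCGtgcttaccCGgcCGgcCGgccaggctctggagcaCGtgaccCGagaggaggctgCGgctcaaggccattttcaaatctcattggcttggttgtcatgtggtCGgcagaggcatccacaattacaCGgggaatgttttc
FBN1: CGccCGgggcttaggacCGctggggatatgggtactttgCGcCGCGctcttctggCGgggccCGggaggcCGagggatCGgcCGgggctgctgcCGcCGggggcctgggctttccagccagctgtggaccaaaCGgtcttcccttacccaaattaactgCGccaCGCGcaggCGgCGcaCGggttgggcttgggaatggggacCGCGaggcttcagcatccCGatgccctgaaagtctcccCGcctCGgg
VCAN: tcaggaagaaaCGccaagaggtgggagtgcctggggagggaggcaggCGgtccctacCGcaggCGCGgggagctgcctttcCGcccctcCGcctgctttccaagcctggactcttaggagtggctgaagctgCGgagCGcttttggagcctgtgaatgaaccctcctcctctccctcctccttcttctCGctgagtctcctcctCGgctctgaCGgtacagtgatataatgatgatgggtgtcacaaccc
HOXD3 holds 21 CG, HOXD10 holds 23, FBN1 holds 25 and VCAN holds 12, and 29.8%, 25.4%, 21.3% and 48.3% of 27305 promoters of the same length hold as many or more. The median promoter holds 11. Promoters of 14 of the 22 measured HOX genes were found, with 4 to 31 CG and a median of 21. The pair CG reads the same on both strands, and methylation of these bases was not analysed here.

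Basement membrane and matrix was the list with the most members lower in U100. Of 30 measured genes of basement membrane and matrix, 8 (26.7%) were called lower in U100 and 2 (6.67%) higher, beside 2.04% and 5.11% of all measured genes, with a median log2 difference of -0.25. In the edgeR test 4 of the 8 passed, FBN1, NID2 and FBN2 among them, while LAMA1 (adjusted p = 0.0599), POSTN (0.104), LOXL1 (0.14), TNC (0.189) and both higher genes did not. FBN1, the microfibril protein fibrillin-1, stood at 7.86 CPM in U100, 104 CPM in U10 and 18.8 CPM in UWB1.289 (13.2-fold, 10.8 to 16.3). Tenascin C (TNC) stood at 393, 1115 and 331 CPM. POSTN (periostin) stood at 0.610, 6.05 and 0.258 CPM, NID2 (nidogen-2) at 46.5, 118 and 21.2 CPM and LOXL1, a cross-linker of elastic fibres, at 23.2, 61.0 and 12.6 CPM. FBN2 and LAMA1, a fibrillin and a laminin chain, were also among the 8, at 2.43-fold and 2.40-fold higher in U10. The 2 genes higher in U100 were LAMB3, the laminin beta-3 chain of epithelial basement membrane, at 206, 55.2 and 98.7 CPM, and the protease MMP7 at 39.1, 11.1 and 3.27 CPM. Against UWB1.289 the list's median log2 difference was 0.14 in U100 and 0.82 in U10.

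The mesenchymal genes of the study's EMT signature differed in both directions. The study assembled this signature from genes reported in EMT and used it on these same samples. Its use here is therefore not an independent check of the study's reading. Of 30 measured mesenchymal genes, 4 (13.3%) were called lower in U100 and 3 (10%) higher, beside 2.04% and 5.11% of all measured genes, with a median log2 difference of -0.22. None of the 7 passed the edgeR test, with adjusted p of 0.0653 to 0.196. The 4 lower were VCAN, the matrix proteoglycan versican, at 6.10 CPM in U100, 72.6 CPM in U10 and 11.8 CPM in UWB1.289, COL1A2 at 0.458, 5.17 and 0.344 CPM, COL12A1 at 277, 719 and 103 CPM and the lymphatic growth factor VEGFC at 11.1, 27.9 and 4.22 CPM. The 3 higher were COL6A2 (above), the gelatinase MMP9 at 5.26, 0.975 and 0.258 CPM and the EMT transcription factor SNAI2 at 6.41, 2.34 and 3.01 CPM. Fibronectin (FN1) was abundant in both, at 5449 CPM in U100, 8186 CPM in U10 and 1169 CPM in UWB1.289. Vimentin (VIM) was close to equal, at 208, 221 and 263 CPM, and the EMT transcription factor ZEB1 stood at 2.67, 2.93 and 1.63 CPM. None of the 13 epithelial genes was called, beside 7.15% of all measured genes, and 13 genes are too few to tell these shares apart. CDH1 (E-cadherin) stood at 42.0, 33.8 and 28.4 CPM, KRT18 at 1124, 801 and 1545 CPM and CTNNB1 (beta-catenin) at 394, 228 and 302 CPM. Their median log2 difference was 0.30, and 10 of 13 were above 0.

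The target of olaparib and the genes of its resistance routes mostly stayed within a 2-fold difference. PARP1 stood at 527 CPM in U100, 378 CPM in U10 and 416 CPM in UWB1.289 (1.39-fold between U100 and U10, 1.34 to 1.45). None of 7 measured genes of ADP-ribose metabolism was called, beside 7.15% of all measured genes, and 7 genes are too few to tell these shares apart. PARG, which removes poly(ADP-ribose), stood at 25.3, 30.7 and 26.8 CPM. BRCA1 transcripts stood at 28.3, 28.7 and 28.5 CPM, a ratio of 1.01 between U10 and U100 with an interval of 0.866 to 1.18. Of 25 measured genes of homologous recombination, PALB2 was called, a share of 4% beside 7.15% of all measured genes. PALB2, which joins BRCA1 to BRCA2, stood at 34.8 CPM in U100, 84.7 CPM in U10 and 29.1 CPM in UWB1.289 (2.44-fold higher in U10, 2.17 to 2.73), with an edgeR adjusted p of 0.0542. The list's median log2 difference was -0.28.

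Of 13 measured genes of end protection and end joining, SHLD2 was called (7.69%, near the share of all genes; edgeR adjusted p = 0.0601). SHLD2, a shieldin subunit that protects DNA ends from resection, stood at 9.15 CPM in U100, 20.3 CPM in U10 and 23.4 CPM in UWB1.289. TP53BP1, which acts upstream of shieldin, stood at 40.7, 52.7 and 63.2 CPM, and MAD2L2, another shieldin partner, at 24.3, 34.6 and 25.6 CPM. Of 15 measured genes of replication stress, SLFN11 was called higher in U100 (6.67%, near the 5.11% of all measured genes). SLFN11, which blocks stressed replication forks, stood at a low 2.67 CPM in U100, 0.390 CPM in U10 and 0.946 CPM in UWB1.289. The drug exporters ABCB1 and ABCG2 were low in all 3 cell lines, at 0.915, 0.195 and 1.12 CPM and at 2.82, 4.78 and 3.96 CPM in U100, U10 and UWB1.289. ABCB1 in U10 was under the limit of detection. Of 13 measured ABC transporters, 3 (23.1%) were called higher in U100, beside 5.11% of all measured genes. None of the 3 passed the edgeR test, nor did SLFN11. They were the sterol exporter ABCG1 (6.94, 0.975 and 2.07 CPM), ABCA3 (34.4, 13.8 and 27.6 CPM) and ABCA13 (8.16, 1.95 and 1.55 CPM).

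Developmental signalling genes differed in both directions. Of 29 measured genes of the Wnt pathway, 5 (17.2%) were called higher in U100 and 1 (3.45%) lower, beside 5.11% and 2.04% of all measured genes, with a median of 0.41. Of these 6, AXIN2 and LGR5 passed the edgeR test, with adjusted p of 0.0338 and 0.0345, and the others had 0.0597 to 0.161. AXIN2, a feedback inhibitor and target of the pathway, stood at 11.5 CPM in U100, 1.07 CPM in U10 and 3.44 CPM in UWB1.289. The ligand genes WNT6 (4.96, 0.585 and 2.67 CPM) and WNT10A (31.5, 11.2 and 10.3 CPM), the receptor gene FZD7 (10.2, 3.51 and 5.94 CPM) and TCF7L1, a DNA-binding factor (4.04, 1.17 and 4.22 CPM), were higher in U100 too. LGR5, a receptor for R-spondins and itself a known Wnt target, was the 1 lower gene, at 1.83 CPM in U100, 10.0 CPM in U10 and 0 counts in UWB1.289.

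Of 26 measured genes of the TGF-beta and BMP pathways, 4 (15.4%) were called higher in U100 and 3 (11.5%) lower. Among all measured genes these shares were 5.11% and 2.04%. Of the 7, ID2 and BMPR1B passed the edgeR test, with adjusted p of 0.0265 and 0.0372. The 4 higher are known BMP targets or inhibitors, and U10 was their low cell line. ID1 stood at 151 CPM in U100, 72.2 CPM in U10 and 155 CPM in UWB1.289, ID2 at 24.3, 6.34 and 47.8 CPM, ID4 at 36.1, 16.6 and 61.4 CPM and the inhibitor SMAD6 at 26.7, 10.3 and 20.4 CPM. ID1 and ID4 fell just short of the call with TMM library sizes, at 0.963 and 0.993 (log2). The 3 lower were the ligands TGFB2 (15.9, 39.3 and 10.5 CPM) and TGFB3 (0.458, 1.95 and 0.172 CPM) and the BMP receptor BMPR1B (0.0763, 3.51 and 0.860 CPM). BMPR1B in U100 and TGFB3 in UWB1.289 were under the limit of detection. Of 11 measured Notch genes, 2 (18.2%) were called higher in U100, beside 5.11% of all measured genes. They were NOTCH3 (16.6, 5.17 and 24.95 CPM) and the target HES1 (20.7, 9.85 and 8.35 CPM). HES1 was not called with TMM library sizes (0.922), and neither gene passed the edgeR test. Of 24 measured receptor tyrosine kinases, 5 (20.8%) were called higher in U100 and 0 lower, beside 5.11% and 2.04% of all measured genes. The most abundant of the 5 was the VEGF receptor KDR at 18.8, 6.24 and 4.47 CPM. None of the 5 passed the edgeR test, with adjusted p of 0.0585 to 0.196.

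The differences were not spread evenly along the chromosomes. In windows of 31 neighbouring measured genes, the window's median was set against the median of all genes, and windows at least 0.4 (log2) away were merged into stretches. There were 40 stretches, 15 higher and 25 lower in U100, and they held 2784 of 13806 measured genes with a position (20.2%). The largest window stood 1.11 from the median. Between the 2 HepG2 libraries the same windows gave 3 stretches with 99 genes and a largest value of 0.481, and none passed in HepG2S3 or HCC4006ER, whose largest values were 0.176 and 0.189. Since called genes and stretches come from the same differences, their overlap is a description. In the 15 higher stretches, 16.9% of genes were called higher in U100 and 0.575% lower. In the 25 lower stretches 7.41% were called lower and 1.92% higher, and outside the stretches 4.31% were called higher and 1.51% lower. The HOXD run lies in a higher stretch on chromosome 2 from METAP1D to DNAJC10, with 13 of 53 genes called higher and 0 lower. The HOXA cluster lies in a higher stretch on chromosome 7 from GSDME to GLI3, with 7 of 76 genes called higher and 1 lower.

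**Figure D4:**
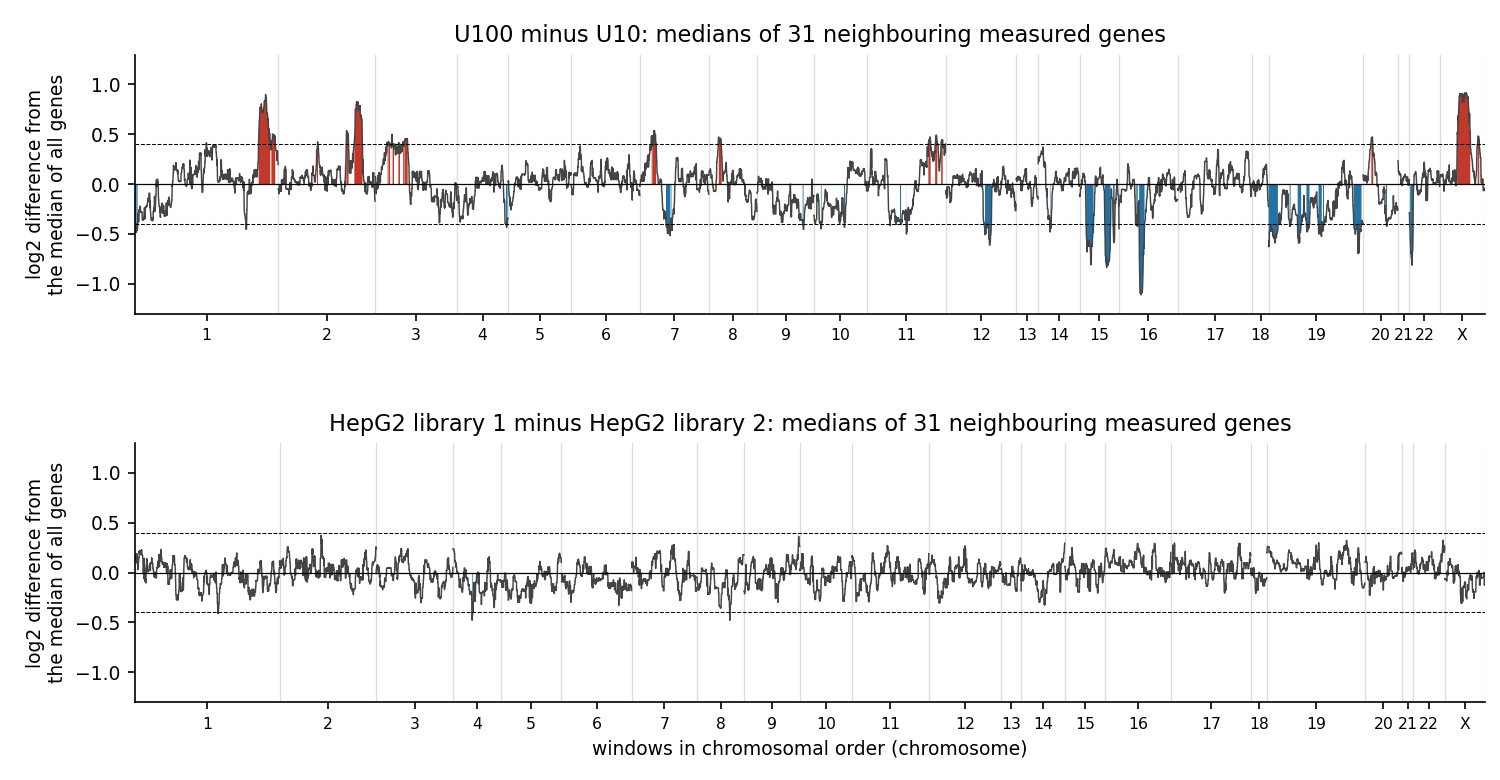
The y axes give the median log2 difference of 31 neighbouring measured genes less the median of all genes, and the x axes run over windows in chromosomal order. Dashed lines mark 0.4 in each direction, and windows beyond them are filled. U100 minus U10 (upper panel) has broad peaks on chromosomes 1, 2 and X and troughs on chromosomes 15, 16 and 22, whereas the 2 HepG2 libraries (lower panel) reach at most 0.481.

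In all, 7 stretches held a window at least 0.7 from the median. The strongest lower one, on chromosome 16 from SNX29 to MAPK3 (chr16:12070591-30134827, GRCh37), had 24 of 117 genes called lower in U100 and 2 higher, and a median 0.53 below that of all genes. Inside it, 9 consecutive measured genes from USP31 to PLK1 were all called lower, with differences of 1.00 to 1.57 (log2), and PALB2 is one of them. The mitochondrial elongation factor TUFM stood there at 189 CPM in U100, 501 CPM in U10 and 226 CPM in UWB1.289, the nuclear exporter XPO6 at 120, 329 and 122 CPM and the mitotic kinase PLK1 at 70.6, 142 and 152 CPM. PLK1 thus stood at the parental level in U10, unlike TUFM, XPO6 and PALB2, for which U10 was the high cell line.

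The strongest higher stretch, on chromosome X from MAGEH1 to PGRMC1 (chrX:55478560-118378429), had 55 of 158 genes called higher in U100 and 0 lower, with a median 0.80 above that of all genes. RPS4X, a protein of the small ribosomal subunit, stood at 1075 CPM in U100, 464 CPM in U10 and 1027 CPM in UWB1.289. OGT, which adds O-GlcNAc to proteins, stood at 525, 226 and 402 CPM, and COL4A5, a basement membrane collagen, at 43.3, 9.65 and 22.6 CPM. On chromosome 1, the stretch from TMEM81 to CEP170 (chr1:205052257-243418650) had 38 of 193 genes called higher and 2 lower, with a median 0.58 above; it holds PARP1, LAMB3 and the stress-induced factor ATF3 (40.7, 15.4 and 12.0 CPM). On chromosome 2, a stretch of the long arm that ends at BCS1L had 26 of 110 genes called higher and 1 lower, with a median 0.64 above. The isocitrate dehydrogenase IDH1 stood there at 59.0, 12.9 and 37.3 CPM and CFLAR, an inhibitor of caspase-8, at 66.4, 23.5 and 57.8 CPM.

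A pair of lower stretches lay on chromosome 15, from C15orf62 to NEDD4 (chr15:41062178-56285858, 8 of 101 genes called lower and 1 higher) and from RPLP1 to NGRN (chr15:69745153-90819010, 13 of 127 lower and 2 higher). Their medians were 0.50 and 0.52 below that of all genes. They hold FBN1, LOXL1 and B2M, the light chain of MHC class I, which stood at 402 CPM in U100, 811 CPM in U10 and 388 CPM in UWB1.289. For FBN1, LOXL1 and B2M, U10 was farther from UWB1.289 than U100 was, unlike the medians of their stretches given below. TLE3 lies in the second of these stretches but was higher in U100. The seventh stretch, on chromosome 22 from CECR7 to CHCHD10 (chr22:17525763-24110159), had 7 of 63 genes called lower and 2 higher and a median 0.42 below.

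Against UWB1.289, the stretches fell into those at which U10 stood apart and those at which U100 did. On chromosomes X, 1 and 2, the median log2 difference from UWB1.289, less that of all genes, was -0.75, -0.45 and -0.62 in U10 but 0.08, 0.12 and 0.0024 in U100. On chromosomes 16 and 22 it was 0.48 and 0.43 in U10 but 0.01 and 0.0084 in U100. On chromosome 15 it was -0.08 and 0.03 in U10 but -0.67 and -0.48 in U100. U10 was therefore the cell line away from the parental level in 5 of the 7 stretches and U100 in the other two. Both sets of values share the UWB1.289 library, and the DNA of these cell lines was not analysed here. The study sequenced the DNA of its cell lines at low coverage. Outside the HepG2 pairs, it reported only small differences between parental and resistant cell lines. The stretches were not compared with those DNA data.

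**Figure D5:**
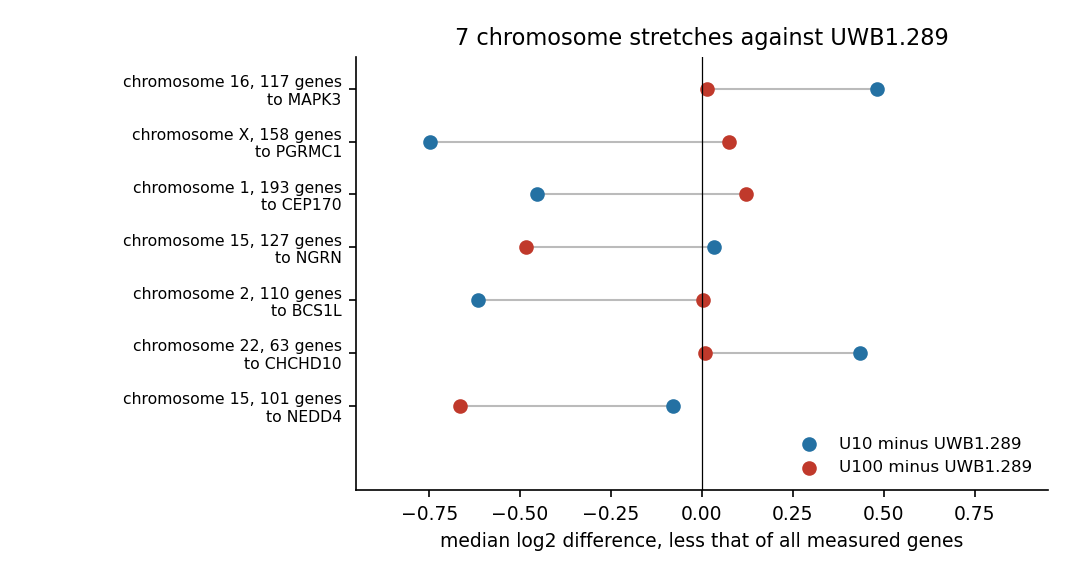
Each row is 1 of the 7 stretches, and the x axis gives the median log2 difference from UWB1.289 over its measured genes, less that of all measured genes, for U10 (blue) and U100 (red). The red point lies near 0 for the stretches on chromosomes 16, X, 1, 2 and 22, and the blue point lies near 0 for both stretches on chromosome 15.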

How the data were processed

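The authors deposited whole-number counts of reads per Ensembl gene for each library, without normalization. Per the labels, libraries were made with a stranded mRNA kit, and Bowtie, TopHat, SAMtools, HTSeq and hg19 were used in processing; versions and the HTSeq strand setting are not given in the sources used here. CPM were computed from the total on the 53515 genes, HTSeq's summary rows were left out, and differences were taken on log2(CPM + 1), which understates those of genes with few counts. In U100 and U10, 62.3% and 65.1% of reads in the files were on genes, and 9.68% and 8.94% on no feature. Ratio intervals are exact 95% Clopper-Pearson intervals of the split of 2 counts. Symbols and positions of 84.3% of genes came from GENCODE release 44 lifted to GRCh37. HCC4006P1 library pairs left out chromosomes on which 1 library lacks counts.

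Named are the 15 protein-coding genes and 5 others with the largest called difference in each direction (the latter in the closing section), called members of 42 gene lists, a fixed set of markers and resistance genes, and called genes inside stretches, of which examples are given. Some genes that this rule names are not reported here. IDH1, CFLAR, OGT, COL4A5, TUFM and XPO6 are such examples, chosen after their values were seen. The genes and lists were chosen with earlier results of these data known. Alternatives used a pseudocount of 0.1 CPM, TMM and DESeq2 1.42.0 library sizes, other filters and windows, thinning to equal totals, and edgeR 4.0.16, whose quasi-likelihood test borrowed its spread from replicated cell lines. R 4.3.3 and Python 3.11.15 were used. The call rule and the edgeR test were tested on simulated data.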

Additional observations from a re-analysis of the deposited data

Results flagged for a closer look

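For 7 genes, U100 and U10 stood at least a log2 difference of 1 from UWB1.289 on opposite sides, each beyond counting error. This difference in direction was not tested, since each cell line had 1 library. In 5 of them U100 was above and U10 below the parental level. AXIN2, a Wnt target, differed by 2.59 (log2) between U100 and U10 and stood at 11.5, 3.44 and 1.07 CPM in U100, UWB1.289 and U10. COL22A1, a collagen of tissue junctions, differed by 2.55, at 19.7, 8.60 and 2.54 CPM. SMO, the transducer of Hedgehog signals, differed by 2.52, at 9.76, 4.30 and 0.878 CPM. SYT13, a synaptotagmin, differed by 2.31, at 7.32, 2.93 and 0.683 CPM, and TRABD2A, a membrane metalloprotease that acts on Wnt proteins, differed by 2.14, at 20.2, 9.03 and 3.803 CPM. In the other two, U10 was above and U100 below. FLRT2, an adhesion protein, had a log2 difference of -3.12, at 0.610, 2.58 and 12.97 CPM, and FBN1 of -3.56, at 7.86, 18.8 and 104 CPM.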

How the results depend on the processing

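With TMM or DESeq2 library sizes, a pseudocount of 0.1 CPM, no filter, protein-coding genes only, or U100 thinned to the total of U10, the 3 counts of called genes stayed within 1.5 times those reported; 907 and 881 of the 1043 genes were still called with TMM and DESeq2 library sizes, and the split became 61.8% and 59.4% higher in U100. A mean of at least 5 CPM left 658 called genes, 426 of them higher in U100. A log2 difference of at least 2 left 103, 63 higher and 40 lower. The quasi-likelihood test of edgeR, with the spread between libraries borrowed from HepG2, HepG2S3 and HCC4006ER, called 191 of 19646 genes at an adjusted p under 0.05, 77 higher and 114 lower in U100, so the majority turned to genes lower in U100; it assumes that U10 and U100 cultures vary like the libraries of those lines. Of its 191 genes, 181 are among the 1043, and 25 of the 30 leading genes but 18 of the 93 called list members passed it, with none of the called HOX genes, receptor tyrosine kinases or mesenchymal signature genes among them. No paired analysis was possible because U10 and U100 have 1 library each.

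List medians moved beyond their counting error with TMM library sizes for basement membrane and matrix (-0.33), MHC class I presentation (-0.088), the mitochondrial genome (-0.36) and ribosomal proteins (0.22). With a mean of at least 5 CPM they moved for receptor tyrosine kinases (-0.013), the mucin, kallikrein and S100 list (-0.094), endothelial markers (0.29) and hepatocyte markers (2.07, which is SERPINA1 alone). None of the medians at or beyond 1 changed sign. Of 141 genes named by the rule, 7 fell short of the call with TMM library sizes and none changed sign.

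Genes in stretches numbered 2784 as reported, and their count stayed within 1.5 times under windows of 51 genes, a mean of at least 5 CPM, and differences centred within 50 bins of GC content, an alternative added after the data were seen. At least 68.4% of the genes of each of the 7 strongest stretches stayed in one under each of these. In 5 equal bins of transcript GC content, the median difference was 0.11 in the lowest and -0.0095 in the highest. Each cell line had 1 library, so culture, passage and library preparation cannot be told apart from the cell line, and levels near 3 counts cannot show a difference.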

Other observations

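Immune, secretory and growth genes are given by list. Of 43 measured interferon-stimulated genes, EPSTI1 was called (2.33%, beside 7.15% of all measured genes). It was higher in U100 at 79.9 CPM against 32.1 CPM in U10 and 5.94 CPM in UWB1.289. The list's median log2 difference was 0.35. Of 28 measured genes of inflammatory cytokines and NF-kB output, 3 (10.7%) were called, all higher in U100, beside 5.11% of all measured genes. These were the chemokines CCL20 (54.5 CPM in U100, 20.2 CPM in U10 and 0.430 CPM in UWB1.289) and CXCL2 (24.1, 11.02 and 3.10 CPM, and not called with TMM library sizes) and the apoptosis inhibitor BIRC3 (152, 54.0 and 58.4 CPM). Of 15 measured kallikreins, mucins, CEACAMs and S100 genes, 2 (13.3%) were called higher in U100 (MUC20 and S100A9) and 1 (6.67%) lower (MUC4). Among all measured genes these shares were 5.11% and 2.04%. Among secreted and surface proteins, MUC16, which carries the CA-125 antigen, stood at 95.3 CPM in U100, 30.1 CPM in U10 and 103 CPM in UWB1.289, MUC4 at 206, 455 and 144 CPM, and the protease inhibitor SERPINA1 at 188, 44.1 and 29.6 CPM. Of 34 measured proliferation genes, PLK1 was called lower in U100 (2.94%, beside 2.04% of all measured genes). The list's median was -0.26, with 6 of 34 above 0. The 39 ribosomal protein genes had a median of 0.30, and the 15 genes of the mitochondrial genome -0.27, while that genome took 8.20% of counts in U100, 7.89% in U10 and 8.05% in UWB1.289. In the edgeR test none of these named called genes passed. None of 23 measured genes of cholesterol and lipid synthesis and none of 28 of glycolysis and hypoxia was called. Among all measured genes 7.15% were called.

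Among called genes of other biotypes, the non-coding LINC01547 was higher in U100 at 19.99 CPM against 5.17 CPM in U10 and 5.59 CPM in UWB1.289, followed in level by LINC02577, MIR9-1HG, TTC3P1 and LINC02223. Lower in U100 were ZNF542P (37.8, 97.5 and 52.5 CPM), LINC01111 (4.04, 21.0 and 19.8 CPM), MT-TV, LINC00886 and PSMC2P1.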
